A study of Mus musculus with 36 samples.

Results

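DNA replication in a dividing cell needs proteins that load the helicase onto origins, switch it on, copy both strands, supply nucleotides and pack the new DNA into chromatin. The 46 genes described here form such a set of DNA replication and S-phase genes. They were followed in CD4 T cells of wild-type mice (WT) and of mice labelled Trim28-KO (KO). A member was read from the array probe set that carried its symbol and no other, and from the brighter of these where there were several. On that rule 44 of the 46 members were measured, among 22180 genes with such a probe set. Rfc4, a clamp loader subunit, and Ccne2, cyclin E2, had only probe sets shared with other symbols and were not analysed. All 44 measured members passed the filter on dim genes that left 13082 genes for testing.

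Origins are licensed in G1 phase, when the origin recognition complex, Cdc6 and Cdt1 load the ring-shaped MCM helicase onto DNA. Origins fire in S phase, when the kinase Cdc7 with its partner Dbf4 and the loading factors bring Cdc45 and the GINS complex to MCM. E2F transcription factors drive the genes of this machinery once cyclin-dependent kinases release them from the retinoblastoma protein. Naive T cells rest outside the cycle with much of this machinery low, and activation through the T cell receptor and CD28 brings them into it.

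The series holds 36 samples in 12 groups of 3. Both genotypes, wild-type littermates and Trim28-KO mice, gave sorted naive CD4 T cells and cells kept for 72 h on plates coated with anti-CD3, with anti-CD28 in solution, in conditions named Th0, Th1, Th2, Th17 or Treg. TRIM28 is a co-repressor that KRAB zinc-finger proteins bring to DNA. The labels do not say how or in which cells Trim28 was deleted, what the 5 culture conditions contained, how old the mice were, or whether each sample is a separate animal. The p-values therefore measure the spread between these samples, which may be technical. All values are log2 intensities normalized by the authors, so that a difference of 1 is a 2-fold change, and having 3 arrays in each group limits the precision. In bulk RNA, fewer cycling cells and less of a transcript per cell cannot be told apart.

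The targeted gene and cell type markers were read in every sample. Trim28 was at 9.21 or more in all 18 WT samples, at 7.86 or less in the 3 KO naive samples and at 6.58 or less in the 15 KO samples after stimulation. Of 8 CD4 T cell markers 7 were measured, and their mean lay between 10.80 and 11.47 in every sample. Tbx21 and Ifng were highest in Th1, Il4 and Il13 in Th2, Il17a and Il17f in Th17 and Foxp3 in Treg, in both genotypes. Foxp3 also stood at means of 10.90 in WT Th0 and 11.47 in KO Th0. Markers of B cells (6 measured), NK and gamma-delta T cells (3) and erythroid cells (2) had sample means between 3.93 and 5.20, against a median of 5.26 over the whole table. Single markers of these lists stood higher. Eomes had a mean of 7.90 in WT Th1, and Cd79b had means of 6.01 in WT Th2 and 6.09 in KO Th2. Of the 2 CD8 T cell markers Cd8b1 had means of 8.60 in WT naive and 8.73 in KO naive cells. Among 10 myeloid markers 3 passed the filter. Adgre1 reached means of 8.64 in WT Th2 and 9.74 in KO Th2. Fcgr3 stood at 6.21 and 6.03 in these groups, against 4.64 in WT Th0, and Itgam reached 7.36 in KO Treg. The other myeloid markers, among them Lyz2, Csf1r and Cd14, did not pass.

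Replicate 1 of KO Th0 and replicate 1 of KO Th1 stood apart from their groups in the replication genes. The median level of the 44 members was 7.07 in KO Th0 replicate 1, against 8.06 and 7.95 in replicates 2 and 3. In KO Th1 it was 7.23 in replicate 1, against 8.40 and 8.20. The WT Th0 samples lay between 9.18 and 9.32 and the WT naive samples between 6.75 and 6.93, so that on this median both replicates 1 sat a little above naive cells. Gene by gene, KO Th0 replicate 1 lay below the highest WT naive sample for 32 of 44 members and KO Th1 replicate 1 for 30. Each lay below the lowest WT naive sample for 20 members. No share of all tested genes was counted for these. KO Th0 replicate 1 was below both other replicates for 40 of 44 members and KO Th1 replicate 1 for 44 of 44, where 32.8% and 35.5% of all tested genes were below both. The members not lowest there in KO Th0 were Cdt1, Pola2, Rfc3 and Rpa2. The median gap to the mean of the other replicates was 0.68 in KO Th0, widest for E2f8 at 2.59, and 1.08 in KO Th1, widest for Pole at 2.28. Mki67, a marker of cycling cells and no member, was at 8.61 and 9.0 in KO Th0 replicate 1 and KO Th1 replicate 1. It was between 10.64 and 10.94 in replicates 2 and 3 of the same groups, and between 5.32 and 6.05 in the KO naive samples. Trim28 levels in KO Th0 replicate 1 and KO Th1 replicate 1 were 6.06 and 6.23. The labels give no difference in handling, and results that rest on these samples are given with and without them. Same-numbered samples of KO Th0 and KO Th1 deviated together, so both replicates 1 may not be separate observations.

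**Figure D1:**
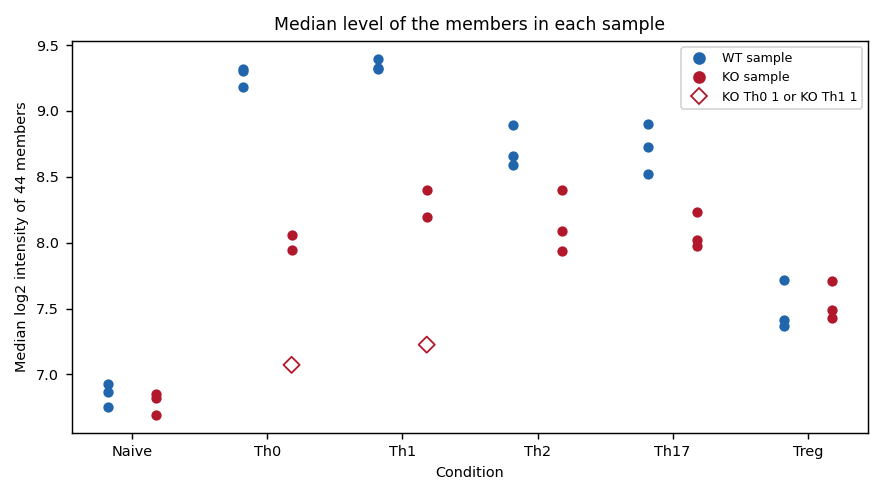
Median log2 intensity of the 44 members (y axis) in each of the 36 samples by condition (x axis), WT in blue and KO in red, with replicate 1 of KO Th0 and of KO Th1 as open diamonds. The WT naive samples lie between 6.75 and 6.93 and the WT Th0 samples between 9.18 and 9.32, the KO Th0 and Th1 samples lie below all WT samples of their condition, and the diamonds lie at 7.07 and 7.23.

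The promoters were searched for letters that E2F factors are known to bind, because the members moved together across these samples. RefSeq windows (GRCm38.p6, 250 bases before to 50 after the transcript start) were at hand for 37 of the 44 members. Any of TTTCCCGC, TTTCGCGC, TTTGCCGC and TTTGGCGC, on either strand, stood in a window of 14 of these 37 members (37.8%). The share was 2.60% of 27025 genes with a window, and 1 of 20 mitosis genes had such letters. Some genes had several windows, and a gene counted if any of them held the letters. In 8 of the 37 members the letters stood in the 250 bases before the start. CCAAT, the letters of the NF-Y box, searched on both strands, stood in 21 of 37 (56.8%), against 41.1% of genes and 17 of 20 mitosis genes (85.0%). TTTGAA on either strand, the element known from G2 and mitosis genes, stood in 8 of 37 (21.6%), against 20.2% of genes and 16 of 20 mitosis genes (80.0%). None of these motifs contains another. The promoters of 4 members with E2F-type letters are printed as the 250 bases before the start, 5′ to 3′ on the gene's strand, with those letters in capitals. Orc1 (origin recognition complex, chr4:108579204-108579453, plus strand) is shown as the member that rose in KO Th2, and Cdc6 (helicase loading, chr11:98907901-98908150, plus strand) as the member with the largest fall in KO Th0. Mcm5 (chr8:75109259-75109508, plus strand) and Mcm6 (chr1:128359706-128359955, minus strand), subunits of the MCM ring, are shown for their overlapping matches on opposite strands.
Orc1: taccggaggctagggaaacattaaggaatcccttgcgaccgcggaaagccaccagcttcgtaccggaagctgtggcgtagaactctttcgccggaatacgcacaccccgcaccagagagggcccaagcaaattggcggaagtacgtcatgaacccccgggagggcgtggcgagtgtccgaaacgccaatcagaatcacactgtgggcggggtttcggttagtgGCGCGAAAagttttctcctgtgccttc
Cdc6: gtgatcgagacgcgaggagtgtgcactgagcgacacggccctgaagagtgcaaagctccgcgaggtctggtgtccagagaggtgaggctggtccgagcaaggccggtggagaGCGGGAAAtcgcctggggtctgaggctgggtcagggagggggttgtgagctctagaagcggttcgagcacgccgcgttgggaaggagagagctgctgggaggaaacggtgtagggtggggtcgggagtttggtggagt
Mcm5: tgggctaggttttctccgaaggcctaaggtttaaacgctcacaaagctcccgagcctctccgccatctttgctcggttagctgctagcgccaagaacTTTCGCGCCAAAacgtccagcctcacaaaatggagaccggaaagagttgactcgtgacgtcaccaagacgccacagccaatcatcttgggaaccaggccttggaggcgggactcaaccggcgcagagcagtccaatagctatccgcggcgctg
Mcm6: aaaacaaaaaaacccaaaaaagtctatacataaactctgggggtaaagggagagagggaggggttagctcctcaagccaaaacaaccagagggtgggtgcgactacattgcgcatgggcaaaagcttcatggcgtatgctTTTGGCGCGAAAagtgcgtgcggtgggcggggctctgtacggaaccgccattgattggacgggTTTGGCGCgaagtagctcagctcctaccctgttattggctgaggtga
Counted from the start, the match begins at base -27 in Orc1 and at -138 in Cdc6. In Mcm5 the matches begin at -153 and -149, and in Mcm6 3 matches begin from -110 to -47. A match is a description of letters, not a site or a cause. The median log2 change in KO against WT Th0 cells was -1.50 for the 14 members with any of the E2F-type strings searched and -1.52 for the 23 with none. Other E2F-type letters were not searched. The split therefore does not sort members by E2F binding, and a part of E2F factors was not tested.

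Stimulation raised nearly the whole set in WT cells. Of 44 members 43 were higher in WT Th0 than in WT naive cells (limma, Benjamini-Hochberg adjusted p under 0.05), where 31.2% of all tested genes were called higher, and no member was called lower. The median log2 change was 1.98, and all 3 Th0 samples lay above all 3 naive samples for 44 of 44 members (36.1% of tested genes). Pcna, the sliding clamp that tethers polymerases to DNA, was not called. Its level was 11.24, 11.46 and 11.40 in the naive samples and 11.78, 11.59 and 11.54 in the Th0 samples, a log2 change of 0.27 (SE 0.14). The groups did not overlap, but the lowest Th0 sample lay only just above the highest naive one.

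E2f8, an atypical E2F that represses E2F targets, had the largest rise. Its level was 4.17, 4.24 and 3.85 in WT naive and 9.71, 10.00 and 9.93 in WT Th0 samples, a change of 5.79 (SE 0.47, 55.3-fold, adjusted p = 5.26e-11, limma). Next came genes of nucleotide supply, with all samples of both far above naive. Rrm2, the S-phase subunit of ribonucleotide reductase, went from 6.32, 6.14 and 5.95 to 10.33, 10.57 and 10.57, a change of 4.36 (SE 0.36). Tk1, thymidine kinase, went from 5.62, 5.75 and 5.55 to 9.89, 10.02 and 9.78, a change of 4.26 (SE 0.31). By role the median change was 2.84 for the G1/S regulators, 2.64 for nucleotide supply, 2.63 for lagging-strand processing and repair, 2.34 for origin firing, 2.16 for chromatin assembly, 1.63 for polymerases and primase, 1.52 for licensing and 1.01 for the clamp group. The smallest called change was that of Cdt1, the MCM loader, at 0.45 (SE 0.11).

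**Figure D2:**
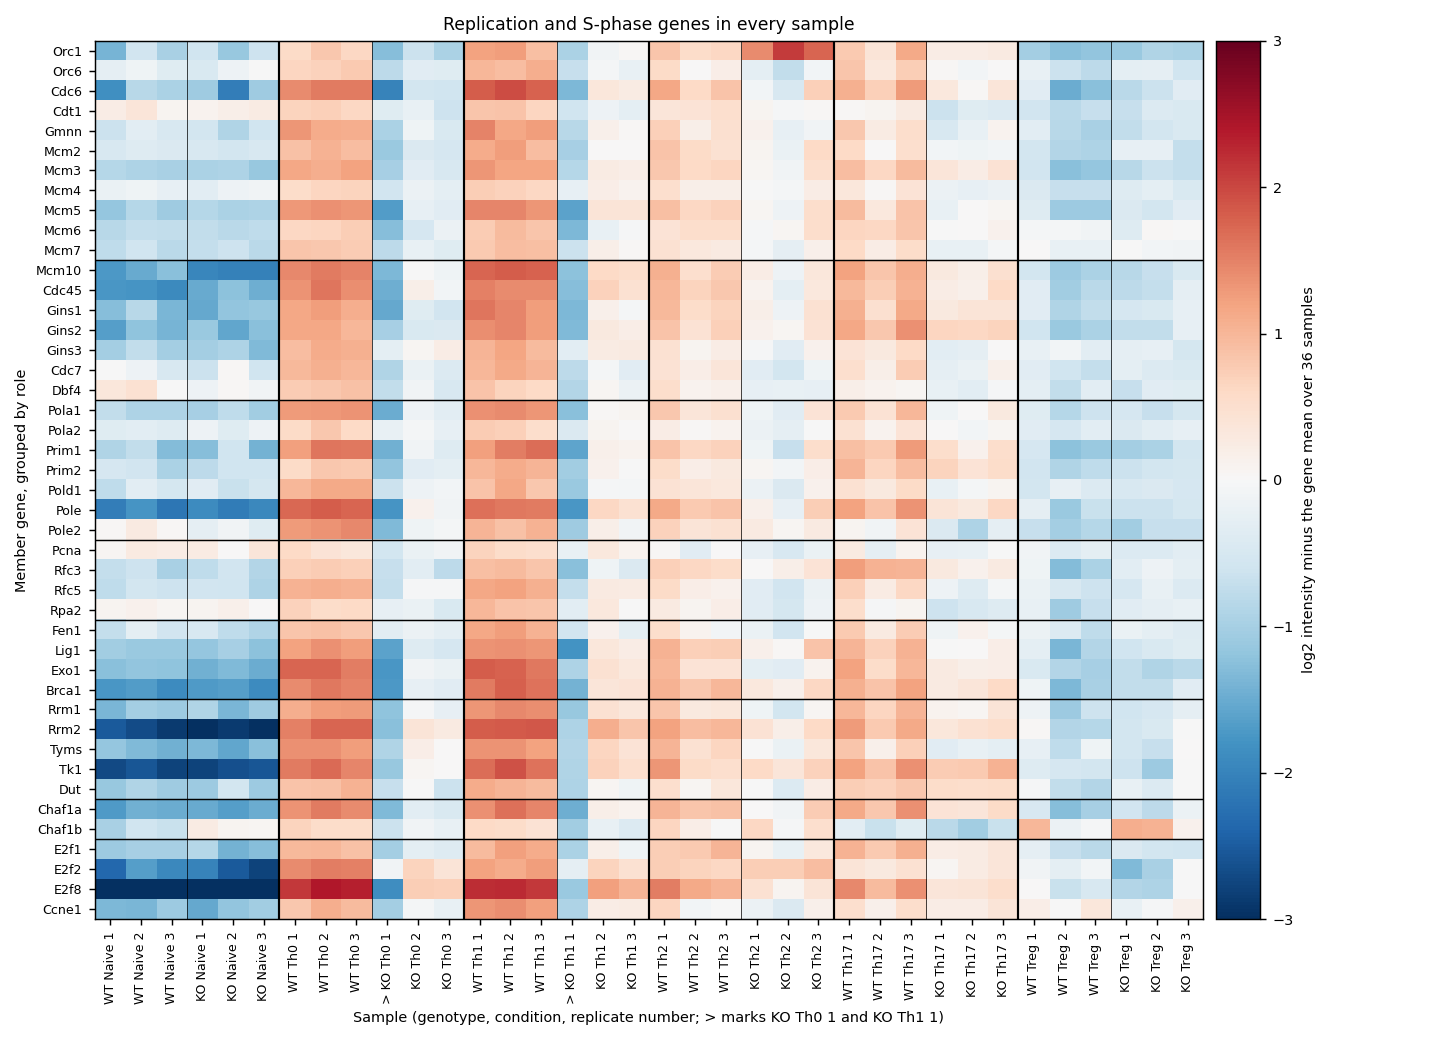
Log2 intensity of each of the 44 members (y axis, grouped by role) minus its mean over all 36 samples, for each sample (x axis), from blue (below) through white to red (above), with the colour scale ending at -3 and 3. Most entries of the naive columns are blue in both genotypes, the WT Th0 and Th1 columns are red, and the marked columns of KO Th0 replicate 1 and KO Th1 replicate 1 are mostly blue.

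In KO cells the same stimulation went with a smaller change. KO Th0 had 16 members higher and 2 lower than KO naive cells (adjusted p under 0.05, limma; 26.2% and 14.7% of tested genes), with a median log2 change of 0.37. The change was below that of WT for 44 of 44 members, and the difference passed the test for 43 (10.4% of tested genes were called in that direction). E2f2, an activating E2F, was the exception, with a difference of -0.72 (SE 0.35, adjusted p = 0.157, limma). The largest rise in KO was again that of E2f8, from 4.0, 4.14 and 4.36 to 5.73, 8.33 and 8.31, a change of 3.29 (SE 0.47). Rrm2 rose by 2.78, from 5.82, 5.96 and 5.77 to 7.57, 9.21 and 9.09. E2f2 rose by 2.74 and Tk1 by 2.29. Replicate 1 was the lowest KO Th0 sample for each of these 4 members, and even there each stood above all naive KO samples. Without replicate 1 of KO Th0 and of KO Th1, E2f8 rose by 4.15, Rrm2 by 3.30, E2f2 by 2.96 and Tk1 by 2.69.

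By role, the KO stimulation response was uneven. All 4 measured G1/S regulators (E2f1, E2f2, E2f8 and Ccne1, which encodes cyclin E1) rose in KO Th0, as did 4 of 7 firing genes, 3 of 5 nucleotide genes and 3 of 4 genes of lagging-strand processing and repair. The call of Exo1 among the latter was lost in 27 of 36 fits that left out 1 sample. It was also lost without the filter, with quantile normalization again, median centring or the compared groups alone, and under the replicate block (adjusted p = 0.0525, limma). That of Fen1 was lost in 5 of these 36 fits, without the filter, and with quantile normalization again, the mean over probe sets or array weights. Those of E2f1, Brca1 and Cdc45 were also lost with the compared groups alone. None of the 11 licensing genes was called higher over all samples (0 at an unadjusted p under 0.05, limma). With replicate 1 of KO Th0 and of KO Th1 left out, 5 of the 11 were called higher, Cdc6 by 0.83, Mcm5 by 0.61, Mcm3 by 0.58, Mcm6 by 0.42 and Mcm7 by 0.42 (adjusted p from 0.00415 to 0.0455, limma). Cdt1 fell from 8.82, 8.88 and 8.94 to 8.34, 8.48 and 8.09, a change of -0.58 (SE 0.11, adjusted p = 0.000123, limma), with all Th0 samples below all naive ones. Pcna fell by 0.50, from 11.43, 11.21 and 11.55 to 10.64, 10.99 and 11.07 (adjusted p = 0.00588, limma), also without overlap. This change was -0.37 without both replicates 1 (adjusted p = 0.0389, limma), and it was not called without KO Th0 replicate 1 alone (adjusted p = 0.0569, limma). Mcm5, at 8.56, 8.46 and 8.48 in naive and 7.73, 9.16 and 9.07 in Th0 samples, shows the split between replicates: replicate 1 lay below naive cells and replicates 2 and 3 above them, for a change of 0.15 (SE 0.35). KO Th0 replicate 1 lay below the lowest WT naive sample for 20 of 44 members. With replicate 1 of KO Th0 and of KO Th1 left out, 30 members were higher and 2 lower, with a median of 0.64. The share of all tested genes called in that fit is not given. Without KO Th0 replicate 2 the count fell from 18 to 10, and without replicate 3 to 11.

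**Figure D3:**
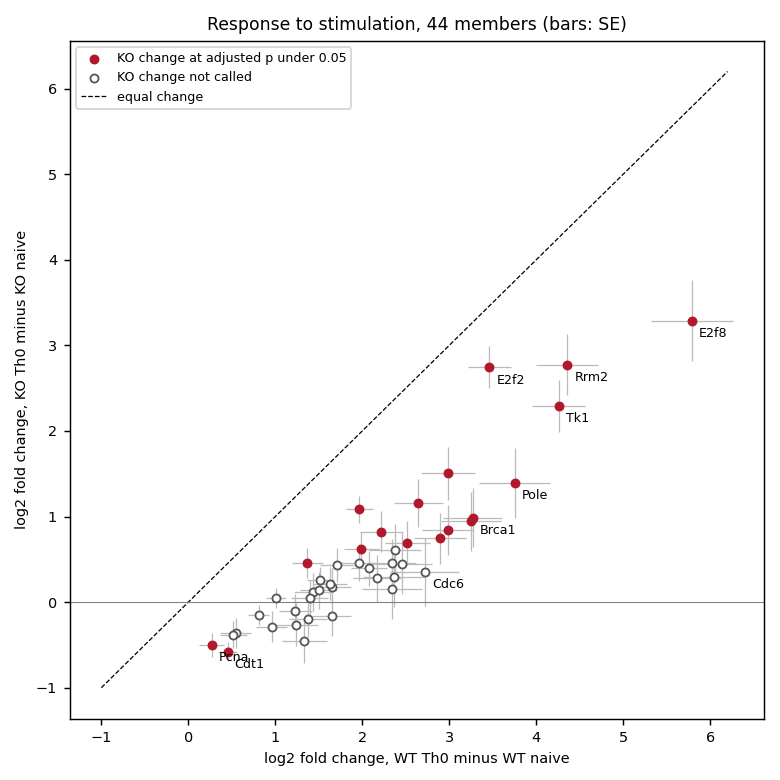
Log2 change from naive to Th0 for each of the 44 members in KO (y axis) against that in WT (x axis), with bars for the SE of each change, filled where the KO change had an adjusted p under 0.05. All 44 points lie below the dashed line of equal change, from Pcna and Cdt1 at the lower left to E2f8 at 5.79 in WT and 3.29 in KO.

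Naive KO and WT cells gave no called difference. No member passed the test (limma; 0.948% of tested genes were called higher and 0.199% lower), 1 had an unadjusted p under 0.05, and the median log2 change was -0.01. The member with that p was Chaf1b, a subunit of chromatin assembly factor 1. Its level was 8.0, 8.38 and 8.29 in WT and 9.20, 9.05 and 9.03 in KO naive samples, a difference of 0.87 (SE 0.26, adjusted p = 0.127, limma). The KO samples lay above all WT samples, which held for 1 other member (6.55% of tested genes), Cdc45. They lay below all WT samples for 3 members (5.80% of tested genes), Mcm10, Pole2 and Exo1. Mcm10, at 5.31, 5.51 and 5.78 in WT and 5.08, 5.0 and 5.01 in KO, had the largest difference in the other direction, -0.51 (SE 0.31), and was not called. Without WT Treg replicate 1, which enters only through the spread, Chaf1b was called.

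In Th0 every measured member was lower in KO than in WT cells. All 44 passed the test (limma, adjusted p from 6.77e-08 to 0.00594), where 19.6% of all tested genes were called lower and 16.8% higher, and all 3 KO samples lay below all 3 WT samples for 44 of 44 (26.2% of tested genes). The median log2 change was -1.59, against -0.00102 over all tested genes, and 39 members differed by at least 2-fold. In Th1 all 44 were again lower (23.7% of tested genes were called lower and 17.0% higher), without overlap (29.8% of tested genes), with a median of -1.44, against -0.03 over all tested genes, and 38 by at least 2-fold. Without replicate 1 of KO Th0 and KO Th1, 44 members remained called in Th0 and 43 in Th1, with Pcna lost, and the medians were -1.33 and -1.06. The share of all tested genes called in that fit is not given. Replicates 2 and 3 on their own lay below all WT samples for 44 of 44 members in both conditions. This follows from the lack of overlap of all 3 KO samples, and no share of all tested genes was counted for it. The difference between the Th1 and the Th0 effect passed for no member (limma, with 0 at an unadjusted p under 0.05). Same-numbered KO Th0 and KO Th1 samples deviated together, with correlations over the members of 0.88, 0.84 and 0.76. The fit did not pair them, which can widen the SE of this difference, and the falls in Th0 and Th1 may not be separate observations.

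**Figure D4:**
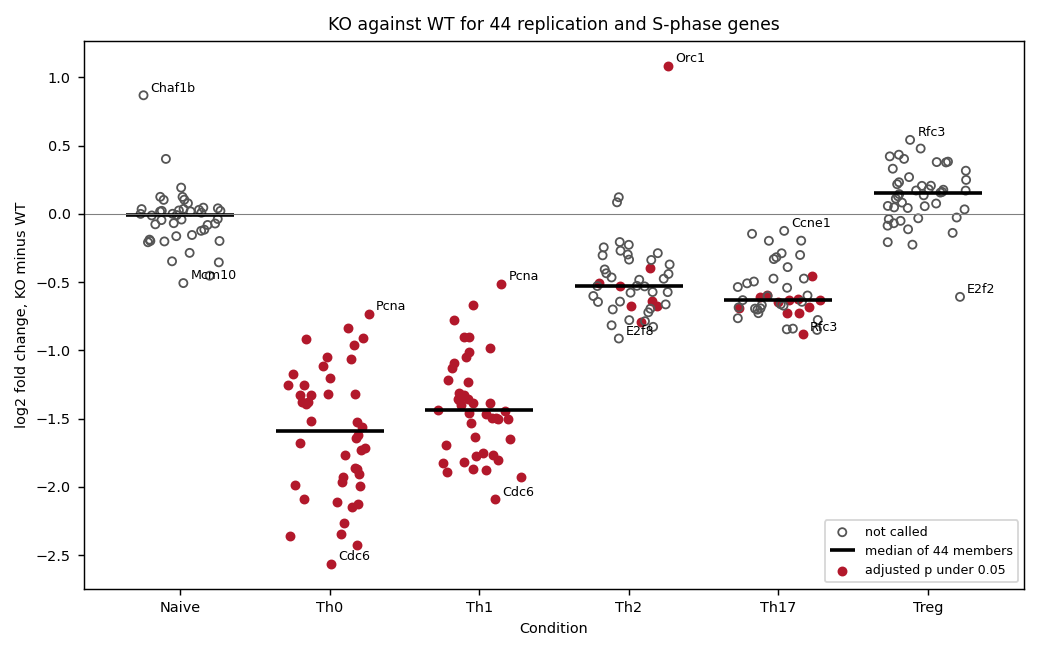
Log2 change of KO against WT (y axis) for each of the 44 members in the 6 conditions (x axis), filled where the adjusted p was under 0.05, with black lines at the median. All points are filled below 0 in Th0 and Th1, 8 are filled in Th2 and 12 in Th17, none in naive or Treg cells, and Orc1 at 1.09 in Th2 is the filled point above 0.

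Licensing genes were lower, with median log2 changes of -1.62 in Th0 and -1.38 in Th1, all 11 in both. Cdc6, which the origin recognition complex needs to load MCM, changed most. Its level was 8.99, 9.13 and 9.14 in WT Th0 and 5.56, 7.04 and 6.98 in KO Th0 samples, a change of -2.56 (SE 0.40, 5.90-fold lower, adjusted p = 1.43e-05, limma). The KO samples 2 and 3 lay close together well below WT, and replicate 1 lay within the range of the KO naive samples, 6.50, 5.50 and 6.51. In Th1 it was 9.39, 9.53 and 9.34 in WT and 6.23, 7.92 and 7.83 in KO, a change of -2.09. Without replicate 1 of both KO groups the changes were -2.08 and -1.54. Mcm5 changed most among the MCM subunits, from 10.71, 10.78 and 10.73 to 7.73, 9.16 and 9.07 in Th0, by -2.09 (SE 0.35). Mcm4 changed least, from 10.63, 10.72 and 10.75 to 9.51, 9.91 and 9.80, by -0.96 (SE 0.12). Between these lay Mcm3 at -1.76, Mcm2 at -1.64, Mcm6 at -1.32 and Mcm7 at -1.25, and whether the subunits differ among themselves was not tested. Gmnn, geminin, which blocks Cdt1 outside G1, fell by 1.68 (SE 0.22), and Cdt1 itself fell by 1.06 (SE 0.11). The origin recognition subunits Orc1 and Orc6 changed by -1.62 and -1.20.

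Genes of origin firing were lower, with median log2 changes of -1.73 in Th0 and -1.50 in Th1, all 7 in both. Gins1, a GINS subunit, stood at 7.82, 7.93 and 7.77 in WT Th0 and at 5.13, 6.30 and 6.10 in KO Th0 samples, a change of -1.99 (SE 0.28, 3.99-fold lower, adjusted p = 3.97e-06, limma). Replicate 1 was the lowest, well apart from the other KO samples. Mcm10, which helps to activate the helicase, changed by -1.99 (SE 0.31), and Cdc45, the helicase cofactor, by -1.91 (SE 0.34). The smallest change of the group was that of Gins3, from 8.68, 8.87 and 8.82 to 7.47, 7.80 and 7.97, by -1.05 (SE 0.16). The kinase Cdc7 fell by 1.52 and its activator Dbf4 by 1.25.

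The polymerases and primase were lower, with median log2 changes of -1.86 in Th0 and -1.35 in Th1, all 7 in both. Pole, the catalytic subunit of the leading-strand polymerase epsilon, stood at 9.65, 9.74 and 9.67 in WT Th0 and 6.15, 8.07 and 7.81 in KO Th0 samples, a change of -2.34 (SE 0.41, 5.07-fold lower, adjusted p = 5.82e-05, limma). Replicate 1 lay within the range of naive cells for this gene, 5.86, 6.17 and 5.76 in WT, and the other replicates between naive and WT Th0. In Th1 the KO samples were 6.19, 8.55 and 8.39, and without replicate 1 of both groups the changes were -1.75 in Th0 and -1.07 in Th1. The other probe set that carries the Pole symbol lay below the table median of 5.26 in both groups, at means of 4.37 and 4.24, and gives no size. Pole2, an accessory subunit, fell by 1.86 and Pold1, the catalytic subunit of the lagging-strand polymerase delta, by 1.39. Among the genes that start each new strand, Prim1 (primase) changed by -2.13 and Pola1 (polymerase alpha) by -1.96, while Prim2 changed by -1.32 and Pola2 by -0.83.

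The clamp, clamp loader and single-strand binding genes had the smallest median changes of the 8 roles, -1.11 in Th0 and -1.06 in Th1, all 4 lower in both. Rfc3, a clamp loader subunit, stood at 7.64, 7.68 and 7.63 in WT and 6.23, 6.60 and 6.13 in KO Th0 samples, a change of -1.33 (SE 0.21, adjusted p = 2.10e-05, limma). Here replicate 1 was not the lowest KO sample. Rfc5 changed by -1.32 and Rpa2, of the single-strand binding complex RPA, by -0.91. Pcna had the smallest change of all 44 members in both conditions. It went from 11.78, 11.59 and 11.54 in WT to 10.64, 10.99 and 11.07 in KO Th0 samples, -0.73 (SE 0.14, 1.66-fold lower), and from 11.86, 11.74 and 11.69 to 10.96, 11.51 and 11.29 in Th1, -0.51. The Th1 change of Pcna was -0.36 without replicate 1 of both KO groups (adjusted p = 0.0506, limma).

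Genes that finish the lagging strand and repair breaks were lower, with median log2 changes of -2.19 in Th0 and -1.77 in Th1, all 4 in both. Exo1, an exonuclease of mismatch repair and break resection, stood at 8.48, 8.49 and 8.26 in WT and 5.0, 6.63 and 6.54 in KO Th0 samples, a change of -2.36 (SE 0.30, 5.12-fold lower, adjusted p = 1.20e-06, limma). Replicate 1 lay below all naive samples for Exo1. Brca1, of homologous recombination, changed by -2.27 and Lig1, the ligase that joins Okazaki fragments, by -2.11. Fen1, the nuclease that trims their flaps, changed least, by -1.11 in Th0 and -1.38 in Th1.

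Nucleotide supply genes were lower, with median log2 changes of -1.72 in Th0 and -1.50 in Th1, all 5 in both. Tk1 stood at 9.89, 10.02 and 9.78 in WT and 7.18, 8.39 and 8.33 in KO Th0 samples, a change of -1.93 (SE 0.31, 3.81-fold lower). Rrm2 stood at 10.33, 10.57 and 10.57 and 7.57, 9.21 and 9.09, a change of -1.87 (SE 0.36). For both genes replicate 1 was the lowest, but still clearly above naive cells. Rrm1, the large subunit of the reductase, fell by 1.72, Tyms, thymidylate synthase, by 1.56, and Dut, which removes dUTP, by 1.38. The probe sets not used for Rrm2, Dut and Fen1 had Th0 means of 5.31, 5.81 and 5.05 in WT and 4.16, 5.29 and 4.33 in KO, near or below the table median of 5.26, and give no size. Of the chromatin assembly factor, the subunit gene Chaf1a fell from 8.21, 8.42 and 8.29 to 5.53, 6.54 and 6.40, by 2.15 (SE 0.30), and its partner Chaf1b by 0.92 (SE 0.26).

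The G1/S regulators were lower, with median log2 changes of -1.45 in Th0 and -1.44 in Th1, all 4 in both. E2f8 stood at 9.71, 10.00 and 9.93 in WT and 5.73, 8.33 and 8.31 in KO Th0 samples, a change of -2.42 (SE 0.47, 5.36-fold lower, adjusted p = 0.000198, limma). It had the widest split of all members in KO Th0 between replicate 1 and the others, and without replicate 1 of both KO groups it changed by -1.56 in Th0 and -1.07 in Th1. The activating factor E2f1 went from 8.95, 8.97 and 8.85 to 6.95, 7.66 and 7.58, by -1.52 (SE 0.20), E2f2 changed by -1.17 and Ccne1 by -1.38. When KO Th1 replicate 1 alone was left out, 41 members remained called in Th1, and those lost were E2f2, E2f8 and Pcna.

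**Figure D5:**
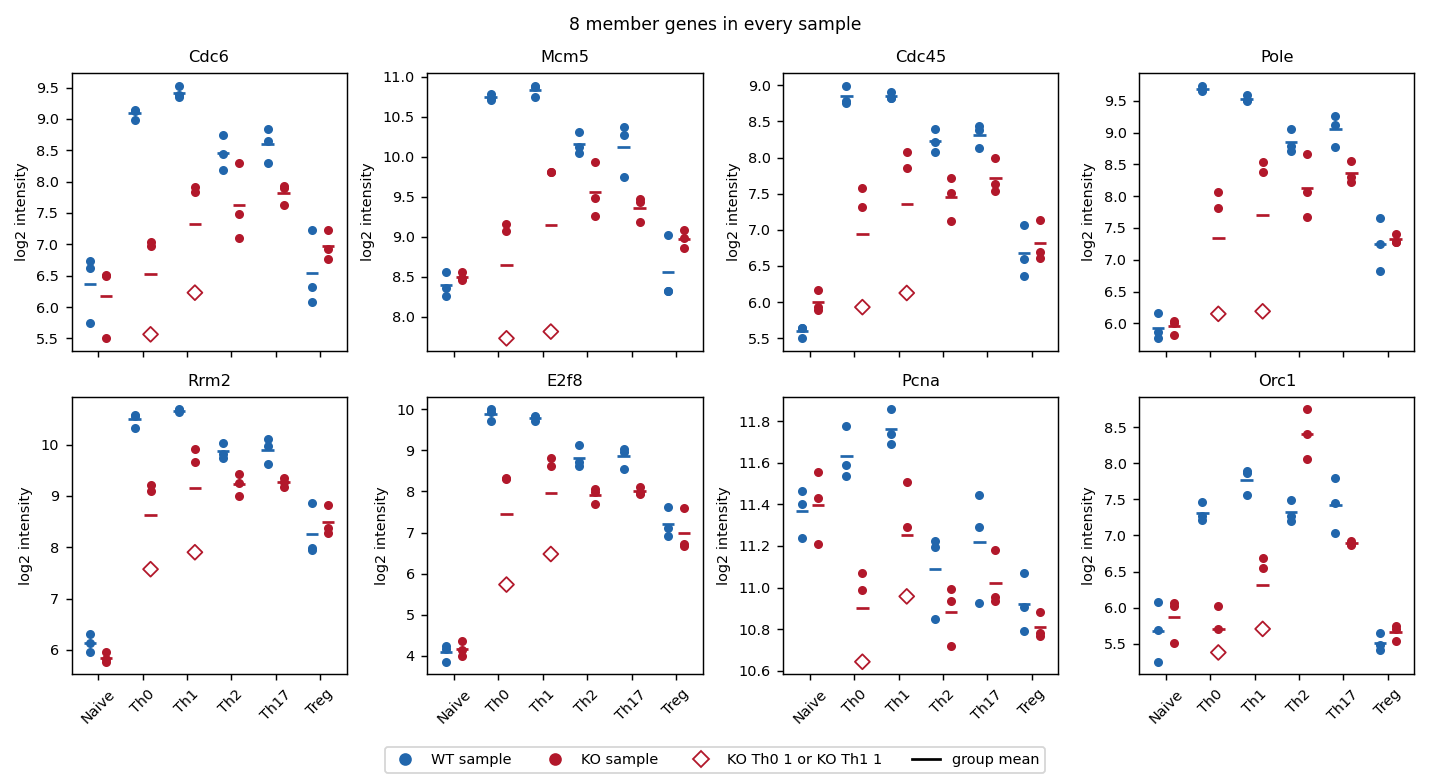
Log2 intensity (y axis, own scale per panel) of 8 members in every sample by condition (x axis), WT in blue and KO in red, with replicate 1 of KO Th0 and KO Th1 as open diamonds and horizontal lines at group means. In Th0 and Th1 all KO samples lie below all WT samples in each panel, and in Th2 the KO samples of Orc1, at 8.06 to 8.75, lie above the WT samples.

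Markers of other cells were read beside these falls. In Th0, Cd79b (B cells) and Cd8b1 (CD8 T cells) were called lower in KO, at log2 changes of -0.50 and -0.59, and Cd3d and Cd3e of the 7 CD4 T cell markers were called higher. In Th1, Pax5 (B cells) and Eomes, which NK cells and some activated T cells express, were lower, and 4 of 7 CD4 T cell markers were higher. No myeloid marker was called in either condition. Of the lineage markers, Gata3 was higher in KO Th0, by 0.55, and Tbx21 and Il4 were lower, at -0.68 and -0.52. In Th1, Foxp3 was higher in KO, by 2.05, and Gata3 by 0.71, while Ifng was lower, at -2.18, and Eomes changed by -2.55. The mean over the 6 B cell markers, of which 2 passed the filter, lay between 4.51 and 4.60 in WT Th0 samples and between 4.46 and 4.54 in KO Th0 samples, and that over the 2 CD8 markers between 6.23 and 6.49 and between 5.91 and 6.18. The part of these shifts in the members' fall was not tested.

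In Th2 few members were called in KO against WT, and Orc1 went the other way. The test called 7 members lower and 1 higher (limma; 8.88% and 7.51% of tested genes), with a median log2 change of -0.53. All KO samples lay below all WT samples for 29 members (17.9% of tested genes), and 25 members were lower and 1 higher at an unadjusted p under 0.05. Orc1, whose promoter is printed above, stood at 7.49, 7.21 and 7.27 in WT and at 8.06, 8.75 and 8.41 in KO Th2 samples. All KO samples were above all WT samples, by 1.09 (SE 0.23, 2.12-fold higher, adjusted p = 0.00106, limma). It was the only called rise of a member in KO against WT in any of the 6 conditions. The level of Orc1 in KO Th2 was above that in every other group, the next being WT Th1 at 7.87, 7.90 and 7.56. Orc6, which did not follow it, stood at 9.19, 8.63 and 8.81 in WT and 8.32, 7.88 and 8.53 in KO, a change of -0.63 (SE 0.18).

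The members called lower in Th2 were E2f1 at -0.79 (SE 0.20, adjusted p = 0.00642, limma), Cdc7 at -0.67, Rfc5 at -0.67, Orc6, Rpa2 at -0.53, Dbf4 at -0.50 and Cdt1 at -0.39. The call of Dbf4 (adjusted p = 0.0496, limma) was lost in 29 of 36 fits that left out 1 sample, with median centring, array weights, no filter or the compared groups alone, and under the replicate block (adjusted p = 0.0525). E2f1 stood at 8.70, 8.76 and 8.98 in WT and 8.04, 7.75 and 8.27 in KO samples, without overlap. E2f8 had a larger change, -0.91 (SE 0.47), and was not called, with samples at 9.12, 8.72 and 8.61 in WT and 8.05, 7.69 and 7.98 in KO. KO Th2 replicate 3 was the highest KO sample for 38 of 44 members and WT Th2 replicate 1 the highest WT sample for 41, as for Cdc6 at 7.48, 7.09 and 8.30 against 8.74, 8.18 and 8.44 in WT. The count of 8 called members fell to 1 without KO Th2 replicate 2 and to 3 without WT Th2 replicate 1, and rose to 14 without KO Th2 replicate 3 and to 18 without KO Th1 replicate 1. It was 29 without replicate 1 of both KO Th0 and KO Th1, which enter here only through the estimate of the spread. That spread is estimated anew for every tested gene, and the share of all tested genes called in that fit is not given. The rise in the count is therefore not read as a result about the members. The myeloid marker Adgre1 was called higher in KO Th2, by 1.10 (SE 0.22), where the mean over the 10 myeloid markers, of which 3 passed the filter, lay between 4.72 and 4.89 in WT and between 4.88 and 5.08 in KO samples. Eomes was lower, and Cd3d, Cd3e, Cd3g and Cd5 of the CD4 T cell markers were higher. Their part in the members' values was not tested.

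In Th17 the test called 12 members lower and none higher (limma; 4.18% and 4.03% of tested genes), with a median of -0.63 and all 44 members below 0. All KO samples lay below all WT samples for 39 members (17.5% of tested genes), and 27 had an unadjusted p under 0.05. Rfc3 had the largest called change. It stood at 8.18, 7.97 and 7.95 in WT and 7.21, 7.04 and 7.20 in KO Th17 samples, a change of -0.88 (SE 0.21, 1.84-fold lower, adjusted p = 0.00738, limma). Licensing gave 5 of the 12, with Gmnn at -0.72, Orc6 at -0.64, Mcm7 at -0.63, Cdt1 at -0.61 and Mcm4 at -0.45. Cdt1 had the smallest adjusted p, with samples at 8.75, 8.79 and 8.98 in WT and 8.06, 8.34 and 8.29 in KO. The others were Rfc5, Rpa2, Gins3, Cdc7, Fen1 and E2f1. The call of Cdc7 (adjusted p = 0.0489, limma) was lost in 22 of 36 fits that left out 1 sample, without the filter, with the compared groups alone and under the replicate block (adjusted p = 0.0529). Orc1 changed by -0.54 (SE 0.23) and was not called.

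The 12 calls in Th17 depended on single samples. The count fell to 3 without WT Th17 replicate 1, 4 without WT Th17 replicate 3, 5 without KO Th17 replicate 1 and 6 without KO Th17 replicate 2. It rose to 21 without KO Th1 replicate 1 and to 30 without replicate 1 of both KO Th0 and KO Th1. The share of all tested genes called in these fits is not given, so the rise is not read as a result about the members. WT Th17 replicate 2 was the lowest WT sample for 41 of 44 members, as for Mcm5 at 10.37, 9.74 and 10.27 against 9.19, 9.44 and 9.47 in KO. Itgam (myeloid) and Cd79b (B cells) were called higher in KO Th17, by 0.77 and 0.51, with myeloid means between 4.23 and 4.32 in WT and between 4.29 and 4.36 in KO samples, and their part was not tested.

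In Treg conditions no member was called (limma; 1.71% of tested genes were called higher and 2.51% lower). The median log2 change was 0.15, with 2 members higher and 1 lower at an unadjusted p under 0.05, and the samples of both genotypes overlapped for 44 of 44 (82.7% of tested genes overlapped, and 5.30% had every KO sample above every WT sample). Cdc6 stood at 7.23, 6.08 and 6.32 in WT and 6.77, 6.93 and 7.23 in KO, a difference of 0.43 (SE 0.40). WT Treg replicate 1 was the highest WT sample for 38 of 44 members, and 3 members were called higher without it, while 1 was called lower without KO Treg replicate 3. E2f2 had the largest difference, from 8.23, 8.04 and 8.25 to 7.0, 7.37 and 8.32, -0.61 (SE 0.25, adjusted p = 0.194, limma). Cd8a and Itgam were called higher in KO Treg, by 1.02 and 1.72, with myeloid means between 4.31 and 4.44 in WT and between 4.52 and 4.71 in KO samples, and their part was not tested.

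The KO effect differed between conditions when this was tested directly. Against the effect in Th0 it was weaker for 26 members in Th2 (4.97% of tested genes were called in that direction), for 26 in Th17 (7.41%) and for 43 in Treg (13.1%), and no member differed the other way. The median difference was 1.09 in Th2, 1.05 in Th17 and 1.78 in Treg. The mean of the sample medians of the set was 9.27 in WT Th0 and 7.69 in KO Th0. In Treg it was 7.50 in WT and 7.55 in KO, against 6.85 in WT naive cells. By this measure KO Treg cells stood no higher than KO Th0 cells, and the part of the low WT Treg level was not tested. In Th2 Orc1 had the largest difference, 2.71 (SE 0.32, adjusted p = 1.65e-06, limma). In Th17 and Treg it was Cdc6, at 1.78 and 3.0 (SE 0.56). E2f2 was the member not called in Treg, at 0.56 (SE 0.35). Of the 11 licensing genes 10 were called in Th2, all but Orc6 at 0.57, and 8 in Th17, all but Orc6, Mcm5 and Mcm6. Several of these calls lay near the threshold. Of 36 fits that left out 1 sample, the Th2 call was lost in 27 for Mcm5 and in 20 for Cdc6. The Th17 call was lost in 25 for Mcm7 and in 20 for Cdt1. None of the 4 clamp genes was called in either (limma; 3 in Th2 and 2 in Th17 at an unadjusted p under 0.05). All these comparisons share the Th0 samples.

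The Th2 and Th17 counts moved with the samples in the fit. Without KO Th0 replicate 1 they fell from 26 to 5 in both, with medians of 0.79 and 0.76. The 5 in Th2 were Orc1, Cdt1, Mcm3, Mcm4 and Pole2, and the 5 in Th17 were Mcm2, Mcm3, Dbf4, Exo1 and Dut. With KO Th1 replicate 1 left out as well, 24 were called in each, with the same medians. The Th2 count was 13 without WT Th0 replicate 2, 17 without WT Th0 replicate 3, 10 without WT Th2 replicate 2, 16 without WT Th2 replicate 3 and 10 without KO Th2 replicate 3. The Th17 count was 15 without WT Th0 replicate 2, 17 without WT Th0 replicate 3, 8 without WT Th17 replicate 2 and 12 without KO Th17 replicate 3. The Treg difference was called for 40 members without KO Th0 replicate 1, with a median of 1.49. The share of all tested genes called is not given for these fits.

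Among WT cells the set was highest in Th1 and Th0 and lowest, of the stimulated conditions, in Treg. The group mean was highest in WT Th1 for 35 members, in Th0 for 8 and in Th17 for Rfc3, but no member passed the test between Th1 and Th0 (limma; 5.43% of tested genes higher and 5.40% lower). At an unadjusted p under 0.05 the count was 0, and the median difference was 0.09. Against Th0, Th2 had 19 members lower (22.9% of tested genes) with a median of -0.60, and Th17 had 17 lower and none higher (18.8% and 20.3% of tested genes) with a median of -0.47. All Th2 samples lay below all Th0 samples for 40 members (31.6% of tested genes) and all Th17 samples for 34 (29.6%). These medians were -0.65 and -0.55 when each sample was centred on its median, a scaling that put the median of all tested genes at -0.11 and -0.12. Exo1 had the largest fall in Th2, from 8.48, 8.49 and 8.26 to 7.72, 7.14 and 7.15, -1.07 (SE 0.30). Pole2 had the largest in Th17, from 9.45, 9.53 and 9.61 to 8.25, 8.07 and 8.59, -1.23 (SE 0.25). Neither pair of groups overlapped. The Th2 count fell to 10 without WT Th2 replicate 2 and to 12 without WT Th2 replicate 3. The Th17 count fell to 7 without WT Th17 replicate 2 and to 10 without any 1 of the WT Th0 samples.

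WT Treg cells had 43 of 44 members lower than WT Th0 cells (limma, 22.4% of tested genes), with a median of -1.72. E2f8 stood at 7.61, 6.92 and 7.12 in Treg, a change of -2.67 (SE 0.47, 6.34-fold lower). Cdc6 changed by -2.54 and Exo1 by -2.46. Chaf1b was the member not called, at 9.97, 8.80 and 8.93 in Treg against 9.64, 9.52 and 9.51 in Th0, -0.32 (SE 0.26). Its WT Treg replicate 1 lay above all Th0 samples and the other replicates below them. Of the stimulated WT conditions Treg was the lowest for 43 members and Th17 for Chaf1b. The mean in WT Treg lay above that in WT naive cells for 29 members, a comparison for which no test was run. All Treg samples lay above all naive ones for 19 members (30.4% of tested genes) and below them for 7, Cdt1, Mcm2, Mcm4, Dbf4, Pole2, Pcna and Rpa2 (21.9% of tested genes). Rrm2 was among the 19, at 8.87, 7.94 and 7.98 against 6.32, 6.14 and 5.95. Orc1 was not, at 5.65, 5.41 and 5.48 against 5.25, 6.07 and 5.69.

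In KO cells the order of conditions changed with replicate 1 of Th0 and Th1. Over all samples the group mean was highest in KO Th17 for 26 members, in KO Th2 for 10, in naive cells for Cdt1, Dbf4, Pcna and Rpa2, in Th1 for Gins3, Rfc5 and Tyms, and in Treg for Chaf1b. It was the lowest of the stimulated conditions in Treg for 23 members and in Th0 for 18. Without these 2 samples the mean was highest in KO Th1 for 21 members, in Th17 for 15, in Th2 for 6, in naive cells for Cdt1 and in Treg for Chaf1b, and lowest of the stimulated conditions in Treg for 35 and in Th0 for 6. Sample medians of the set overlapped between KO Th1, Th2 and Th17, where they ran from 7.23 to 8.40, from 7.94 to 8.40 and from 7.98 to 8.23. The 7.23 was KO Th1 replicate 1, and the other KO Th1 samples were at 8.40 and 8.20. Chaf1b was the only member with its highest KO mean in Treg. In KO it stood at 9.20, 9.05 and 9.03 in naive, 8.31, 8.87 and 8.74 in Th0, 8.15, 7.93 and 8.30 in Th17 and 10.04, 10.01 and 9.09 in Treg samples, so that naive and Treg cells lay above Th17 cells. All KO Th17 samples lay below all KO naive samples for Cdt1, Pcna and Rpa2 as well, 4 members in all (28.9% of tested genes). They lay above all KO naive samples for 35 members (36.3% of tested genes).

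Genes of the same processes that are not in the set were read from 3 lists. In KO against WT Th0 cells, 31 of 41 other replication genes were lower and 3 higher (19.6% and 16.8% of all tested genes), with a median log2 change of -0.81. The largest changes were those of Uhrf1, which helps to copy DNA methylation, at -2.67 (0.42), Pclaf, a PCNA partner, at -2.35 (0.45), and Ticrr, a firing factor, at -2.09 (0.39), with the SE in parentheses. The higher ones were Rrm2b, a further small subunit of the reductase, at 0.71 (0.14), Orc4 at 0.31 (0.12) and Donson at 0.23 (0.09). Of 30 G1/S control genes 19 were lower and 3 higher, with a median of -0.58. They were led by E2f7 at -2.18 (0.36), Cdk6 at -2.11 (0.26) and Ccna2, cyclin A2, at -1.75 (0.43). The higher ones were Cdkn1b, an inhibitor of cyclin-dependent kinases, at 0.59 (0.15), Samhd1, which degrades dNTPs, at 0.42 (0.09) and Rbl2, a pocket protein, at 0.37 (0.10). In both lists the share of higher genes was below that of all tested genes. All 24 mitosis genes were lower, with a median of -2.03, led by Bub1 at -2.48 (0.47), Birc5 at -2.35 (0.43) and Ttk at -2.32 (0.43). In Th1 the counts lower and higher were 32 and 1 of 41, 22 and 2 of 30, and 23 and 0 of 24 (23.7% and 17.0% of all tested genes).

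Outside Th0 and Th1 these lists gave fewer calls. In Th2, 9 other replication genes were lower, led by Mcm8 at -0.88 (0.24) and Rnaseh2b at -0.76 (0.21), and 3 were higher (8.88% and 7.51% of all tested genes). The higher ones were Orc2 at 0.70 (0.14), Donson at 0.50 (0.09) and Orc4 at 0.36 (0.12), of which Orc2 and Orc4 encode further subunits of the origin recognition complex. That count of higher genes was near the share of all tested genes. Of the G1/S control genes 8 were lower, led by Cdkn2c, an inhibitor of cyclin D kinases, at -1.25 (0.28) and the repressor E2f6 at -0.73 (0.16), and Samhd1 was higher. No mitosis gene was called (limma), and 5 were lower at an unadjusted p under 0.05. In Th17, 3 other replication genes were lower, Atad5, Topbp1 and Gins4, and 16 were lower at an unadjusted p under 0.05 (limma). Of the G1/S control genes there, 2 were lower and 1 higher, with 11 lower and 2 higher at an unadjusted p under 0.05. No mitosis gene was called in Th17 (limma), with 3 lower at an unadjusted p under 0.05. Of all tested genes 4.18% were called lower and 4.03% higher in Th17. In Treg no other replication gene was called (3 at an unadjusted p under 0.05) and 2 G1/S control genes were lower, Cdk6 at -1.39 (0.26) and Rb1 at -0.47 (0.09). Of all tested genes 2.51% were called lower there. In naive cells none of the 3 lists had a called gene, with 1, 2 and 0 at an unadjusted p under 0.05.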

How the data were processed

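RNA from 36 CD4 T cell samples was hybridised to Affymetrix arrays run on a GeneTitan device, per the labels' protocols. The authors deposited log2 values made with RMA in the R package oligo under R 3.1.0, per the submitters' processing notes; RMA corrects background, quantile normalizes and summarises probes to probe sets, which can narrow differences that involve most genes. The values were used as deposited and ran from 2.05 to 13.5, with sample medians from 5.18 to 5.35. Depth has no meaning for arrays, and the 3 arrays per group limit the precision.

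Of 41345 probe sets, 23521 carried 1 symbol in GEO's platform annotation, 1814 several and 16010 none. The probe set with the highest mean stood for each of 22180 genes. Genes above the table median of 5.26 in at least 3 samples were tested, 13082 in all. Group means of the 12 groups were fitted with limma 3.58.1 (R 4.3.3) on all 36 samples, with 24 residual degrees of freedom, and 17 comparisons were drawn from that fit. P-values were adjusted by Benjamini-Hochberg over all tested genes within each comparison, and a gene was called at an adjusted p under 0.05. A difference of the KO effect is the KO against WT change in 1 condition minus that in another. Figures and tables were made with Python 3.11.15, pandas 2.3.3 and matplotlib 3.10.9.

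The members and lists were chosen with earlier results of these data known. Any of the 46 members could be named; the text gives, by role, the called member with the largest change and the uncalled members where few, and for other lists the called genes with the largest change. Promoter windows came from RefSeq (GRCm38.p6). On simulated data with known changes in the Th17 comparison (13082 genes), the fit recovered 34 of 67 genes changed by 0.5 on the log2 scale, 61 of 67 changed by 1 and 64 of 66 changed by 2, with 14 calls among 12882 unchanged genes. The alternatives were other filters, quantile normalization again, median centring, the mean over probe sets, a robust prior with a trend, weights for arrays, the replicate number as a block, fits of the compared groups alone, and leaving out samples.

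The replicate numbers in the sample titles were checked for pairing. Deviations from the group means of same-numbered samples correlated above 0.1 for all 3 numbers between KO Th0 and KO Th1 (0.70, 0.60 and 0.51), WT Th0 and WT Th1 (0.39, 0.33 and 0.23) and WT Th0 and WT Th2 (0.25, 0.12 and 0.11), and not between KO and WT samples of any condition.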

Additional observations from a re-analysis of the deposited data

Results flagged for a closer look

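The KO effect on the members differed between conditions by the test of the difference itself (limma, adjusted p under 0.05). It was more negative in Th0 than in naive cells for 43 of 44 members, with E2f2 as the exception. Against Th0 it was less negative in Th2 for 26 members, in Th17 for 26 and in Treg for 43. The WT level in Treg was itself low, with a mean of sample medians of 7.50 against 9.27 in WT Th0. The Th2 and Th17 counts were 5 each without KO Th0 replicate 1, and 24 each without both KO Th0 replicate 1 and KO Th1 replicate 1. These comparisons share the Th0 samples of both genotypes, and no explanation was tested.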

How the results depend on the processing

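No member's call changed direction under any alternative. The fall of the set in KO Th0 and Th1, the rise from naive to Th0 in WT, the fall in WT Treg against Th0, and the contrasts of the KO effect in Th0 with that in naive and Treg cells, kept counts within 1.5 times under every setting. Counts of called members moved further as follows. With array weights they were 18 in KO against WT Th2, 36 in Th17 and 8 in Treg (7 higher), 40 in WT Th2 against Th0 and 43 for the difference of the KO effect between Th2 and Th0. With the compared groups fitted alone they were 1 in naive cells and 28 in Th17 for KO against WT, and 9 in Th1 (7 higher), 38 in Th2 and 32 in Th17 (1 higher) against Th0 in WT. Without KO Th0 replicate 1 and KO Th1 replicate 1 they were 29 in KO against WT Th2, 30 in Th17, 32 in KO Th0 against naive, 35 in WT Th2 and 26 in WT Th17 against Th0. Leaving out each of the 36 samples gave, for KO against WT, 0 to 1 in naive cells, 44 in Th0, 41 to 44 in Th1, 1 to 18 in Th2, 3 to 21 in Th17 and 0 to 3 in Treg. It gave 42 to 43 for WT and 10 to 23 for KO Th0 against naive, and 0 for Th1, 10 to 28 for Th2, 7 to 22 for Th17 and 42 to 44 for Treg against Th0 in WT. For the differences of the KO effect it gave 40 to 43 (Th0 and naive), 0 (Th1), 5 to 36 (Th2), 5 to 35 (Th17) and 40 to 43 (Treg). The causes were not tested, and the shares of all tested genes called in these other fits are not given. With the replicate number as a block, 8 members were called in KO against WT Th2 (7 lower), 12 in Th17 and 19 in WT Th2 against Th0; with the block within genotype these were 11, 14 and 25, and neither block moved a count by over 1.5 times. The replicate block ended the calls of Dbf4 in Th2, Cdc7 in Th17, Exo1 in KO Th0 against naive and Mcm7 in the difference between Th17 and Th0. Of calls of single members, 13 of 386 were lost without both KO samples, 23 without the filter and 22 with the compared groups alone. Signal over background limits members near or below the table median of 5.26, as E2f8 in naive cells.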
